A study of Mus musculus with 9 samples.

Results

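Lin37 and 5 genes of the small heat shock protein family (Hspb1, Hspb2, Hspb6, Hspb8 and Cryab) were followed in lung fibroblasts of mice given doxorubicin or vehicle. The members were taken by name and make up 6 of the 55302 gene symbols in the tables. Lin37 was chosen on its difference between Dox and Pbs in these same libraries, so its values are a description and carry no test. Hspb6 was included because its 3′ end meets the 3′ end of Lin37 on the other strand, and the other 4 genes because they belong to the family of Hspb6.

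The libraries came from fibroblasts sorted from mouse lungs at an early stage of metastasis, 5 from mice that received the anthracycline doxorubicin (Dox), which damages DNA, and 4 from mice that received vehicle (Pbs, for which the labels also write saline). In the study, female mice received breast cancer cells orthotopically at 8 weeks of age, the tumor was resected 2 weeks later, and Dox at 5 mg/kg or Pbs was given 4 days after resection and again 5 days later, with lungs taken 24 h after the last dose. The labels do not state the mouse strain or the tumor line of these libraries, and the study used both 4T1 cells in BALB/c mice and EO771 cells in C57BL/6 mice. The sort gate was CD45-EpCAM-PDGFRa+ by the labels, to which the methods add CD31-, and the labels number the libraries as separate biological replicates.

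Small heat shock proteins are chaperones that hold unfolding proteins through a shared α-crystallin domain and need no ATP to do so. Several of them, among them the products of Hspb2, Hspb6 and Cryab, are abundant in muscle, and heat shock factor HSF1 drives part of the family under stress. Lin37 encodes a subunit of MuvB, the core of the DREAM complex that represses cell cycle genes in resting cells.

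In the mm10 build with GENCODE M21, Lin37 (ENSMUSG00000036845.12) lies at chr7:30555441-30559838 on the minus strand and Hspb6 (ENSMUSG00000036854.14) at chr7:30552178-30555443 on the plus strand. They run tail to tail and share 3 exonic bases, all within the last exon of each gene. The methods of the study name a RefSeq gene file for the read counting, so overlaps given here may differ from those used there. Past its 3′ end, Hspb6 is followed by 334 exonic bases of Lin37 within 500 bases, and Lin37 by 500 exonic bases of Hspb6. Cryab (ENSMUSG00000032060.10, chr9:50751325-50756636, plus strand) and Hspb2 (ENSMUSG00000038086.4, chr9:50751078-50752354, minus strand) share 252 exonic bases, where the first exon of a longer Cryab transcript lies over the last exon of Hspb2. Hspb1 (ENSMUSG00000004951.10, chr5:135887919-135889563, plus strand) and Hspb8 (ENSMUSG00000041548.4, chr5:116408491-116422864, minus strand) have no exon of another gene within 500 bases on either side of their 3′ end.

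The libraries hold 3′ tags, so the transcript end decides where a read falls. The ends of the first-numbered Hspb6 and Lin37 transcripts are shown because they meet, with the polyadenylation signal AATAAA in capitals; the last 30 bases of each transcript run chr7:30555414-30555443 on the plus strand for Hspb6 and chr7:30555441-30555470 on the minus strand for Lin37.
Hspb6 end: tccccAATAAAtgcacttgagatttgtcaa
Lin37 end: atcgttcctggcccagacataaggcagttg
The signal of Hspb6 starts 25 bases from its annotated end, the end base included. The Lin37 end shown holds no AATAAA, which says only that these letters are not in this window.

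**Figure D1:**
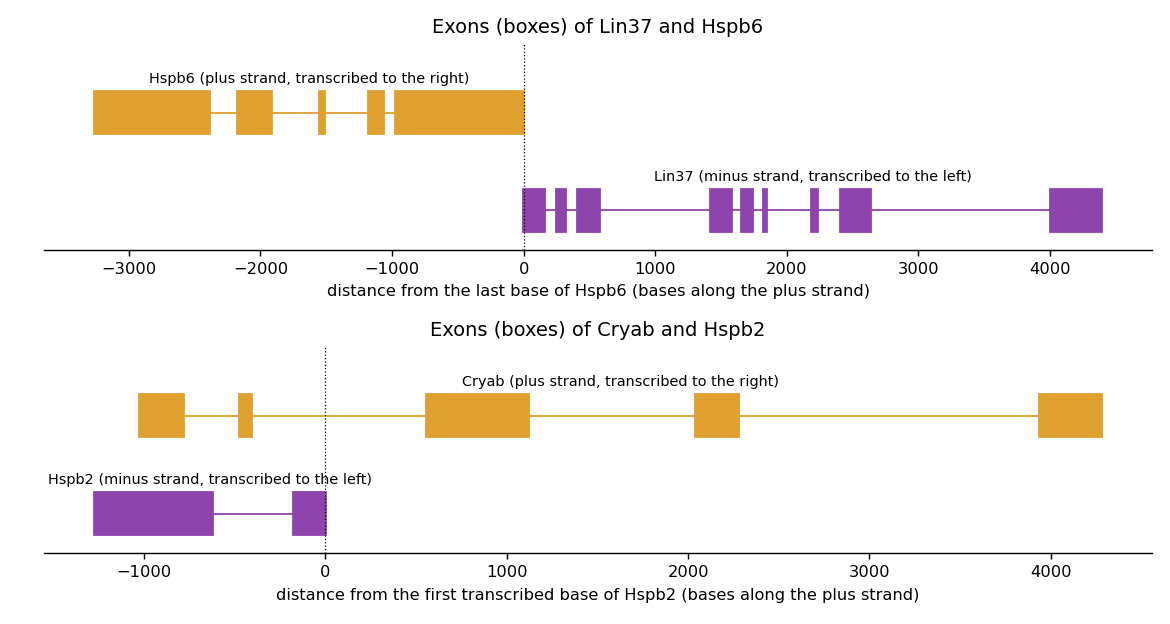
Exons (boxes) and introns (lines) of Lin37 with Hspb6 and of Cryab with Hspb2, by distance in bases along the plus strand from the last base of Hspb6 (upper) and from the first transcribed base of Hspb2 (lower). Lin37 and Hspb6 meet at their 3′ ends and share 3 bases, whereas a Cryab exon of 252 bases lies wholly over the last exon of Hspb2.

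RefSeq promoter windows of 300 bases (GRCm38.p6) were matched by symbol for 4 of the 6 genes, Lin37, Hspb6, Hspb1 and Hspb8. The heat shock pair, GAANNTTC or TTCNNGAA on both strands, occurred in the windows of Hspb6, Hspb1 and Hspb8 and in 15.1% of all 32817 windows. Of the 2 windows of Hspb6 it was in 1, and the window of Hspb1 held 2 matches, 1 of them of another form. The form GAAGTTTC, picked after the matches were seen, occurred in all 3 genes and is present in 1.21% of all windows; the stretches around it are shown with GAAGTTTC in capitals, from chr7:30553170-30553199 (plus), chr5:135887791-135887820 (plus) and chr5:116422844-116422873 (minus).
Hspb6: aagtaattattGAAGTTTCtaaataaggaa
Hspb1: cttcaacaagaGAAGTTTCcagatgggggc
Hspb8: agaagccaggaGAAGTTTCtaggctcgcga
The first letter of the motif stands at -120 in Hspb6, -117 in Hspb1 and 2 in Hspb8, counted from the transcription start as 0. The heat shock triple, which extends the pair by a further alternating unit at the same spacing, was in none of the 4 genes' windows and in 0.603% of all windows. TTTGAA, the core of the element through which DREAM binds cell cycle promoters, was in the windows of Lin37 and Hspb8 and in 17.9% of all windows. TATAAA, the TATA box core, was in a window of Hspb6 and in 13.6% of all windows. These matches are letters only, and binding was not measured.

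Read totals were 432322 to 1285816 in Dox libraries (median 691945) and 497637 to 734114 in Pbs libraries (median 599612.5), and 1 ribosomal RNA row took 7.91 to 35.3% of Dox reads and 5.74 to 9.34% of Pbs reads. The 12 fibroblast markers were all above 0 in at least 1 library and summed to 2746 to 3386 normalized counts in Dox and 1877 to 3753 in Pbs, with Col1a1, a chain of type I collagen, at 1169 to 1785 in Dox and 1027 to 2333 in Pbs. Pdgfra, the sorting gene, stood at 0.928 to 8.22 in Dox and 0.810 to 12.0 in Pbs. Pbs 4 stood apart, with granulocyte markers summing to 1155 and epithelial markers to 462, each the highest of the 9 libraries. Of the 2604 genes that passed the filter on low values (at least 10 in at least 4 libraries), limma called 0.0% between Dox and Pbs at an adjusted p of 0.05, that is 0 genes, with 162 at an unadjusted p under 0.05. edgeR called 0 with 148 unadjusted, DESeq2 0 with 173 and limma-voom 0 with 160.

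Lin37 was higher in every Dox library than in any Pbs library. Its normalized counts (reads divided by the size factor of the library) were 29.7, 32.9, 27.6, 30.6 and 11.8 in Dox 1 to 5, against 2.00, 2.11, 6.31 and 2.43 in Pbs 1 to 4. The Dox libraries rested on 32, 17, 27, 41 and 23 reads and the Pbs libraries on 2, 2, 5 and 3 reads. Dox 1 to 4 lay close together and Dox 5 lay below them, while Pbs 3 was the highest of the Pbs libraries. The means were 26.5 ± 8.46 in Dox and 3.21 ± 2.07 in Pbs (SD, n = 5 and n = 4), with a difference of 2.74 on the log2(value + 1) scale (SE 0.64). Exact Poisson 95% intervals, which cover the counting of reads only, ran from 7.47 to 17.7 for Lin37 in Dox 5, the lowest Dox library, and from 2.05 to 14.7 in Pbs 3, the highest Pbs library, so that these intervals overlapped. Lin37 passed the filter through the Dox libraries alone, since no Pbs library reached 10.

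Of the 6 genes, 1 (Lin37) had groups that did not overlap, a pattern that 1.27% of the 2604 tested genes showed in the same direction and 1.38% in the other. As Lin37 was chosen in this contrast, nothing is read from that count. By the size of the log2 difference it stood at rank 7 of the 2604 genes. It was not called by limma, edgeR or limma-voom. DESeq2 gave it no adjusted p under its independent filtering. It called Lin37, as the 1 gene called there, only with that filtering switched off, a setting chosen after seeing the data. As Lin37 was chosen on this difference, none of these fits tests it.

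**Figure D2:**
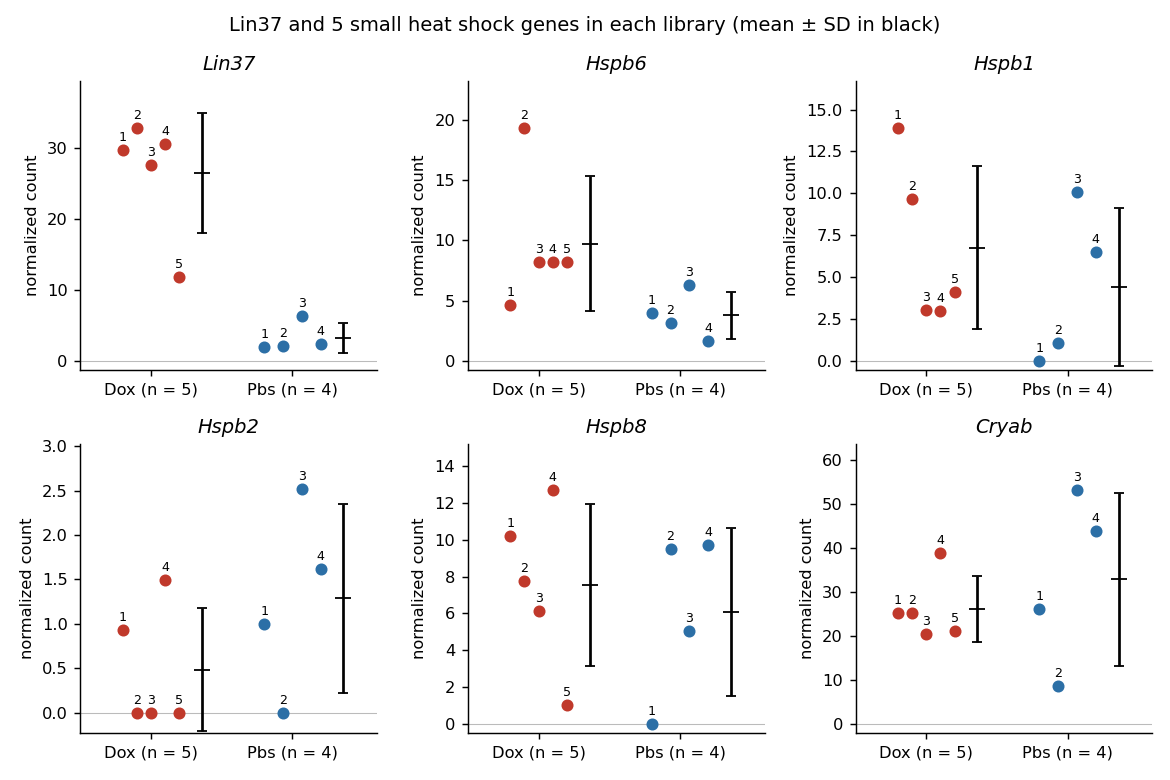
Normalized counts of Lin37, Hspb6, Hspb1, Hspb2, Hspb8 and Cryab in the 5 Dox (red) and 4 Pbs (blue) libraries, numbered by replicate, with the mean ± SD in black. Only for Lin37 do the 5 Dox libraries, at 11.8 to 32.9, all lie above the 4 Pbs libraries, at 2.00 to 6.31.

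Hspb6 encodes HSP20, a small heat shock protein of smooth and striated muscle that is phosphorylated by cyclic nucleotide dependent kinases. Its normalized counts were 4.64, 19.4, 8.17, 8.22 and 8.20 in Dox 1 to 5, against 4.00, 3.17, 6.31 and 1.62 in Pbs 1 to 4. The groups overlapped only in that Pbs 3 lay above Dox 1, and the mean was 9.72 ± 5.60 in Dox and 3.77 ± 1.96 in Pbs. Hspb6 did not pass the filter on low values. In the fit without a filter its difference was 1.13 on the log2(value + 1) scale (SE 0.74, limma adjusted p = 0.781), where 0.0172% of 17428 genes were called, none of them among the 6 genes. Without Pbs 4 and Dox 2 the difference of Hspb6 was 0.61.

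The reads under the names Lin37 and Hspb6 were then set side by side, as they come from adjoining transcript ends. The share of Lin37 in the reads of both genes was 86.5, 63.0, 77.1, 78.8 and 59.0% in Dox 1 to 5, against 33.3, 40.0, 50.0 and 60.0% in Pbs 1 to 4. The groups overlapped, with Pbs 4 just above Dox 5, and the mean share was 72.9 ± 11.5% in Dox and 45.8 ± 11.7% in Pbs. Pooled over libraries it was 73.7% of 190 reads in Dox and 46.2% of 26 reads in Pbs. The exact Clopper-Pearson 95% interval of a single Pbs library was wide, for example 4.33 to 77.7% in Pbs 1, where 6 reads were counted in all, and in Dox 1 it was 71.2 to 95.5% of 37 reads. Counted together, the 2 names gave 34.3, 52.3, 35.8, 38.8 and 20.0 normalized counts in Dox 1 to 5, against 5.99, 5.28, 12.6 and 4.05 in Pbs 1 to 4. The summed signal therefore did not overlap between the groups, with a mean of 36.2 ± 11.5 in Dox and 6.99 ± 3.84 in Pbs, most of which in Dox was the chosen gene Lin37. Over the 9 libraries the log2 values of Lin37 and Hspb6 had a Pearson r of 0.754, which the shared group difference enters. The strand setting of the read counting is not given in the sources used here, a limit that holds for every gene read in these libraries. Whether the reads counted as Lin37 came from Lin37 transcripts or from the opposite strand at the end of Hspb6 cannot be told apart in these tables and was not tested.

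**Figure D3:**
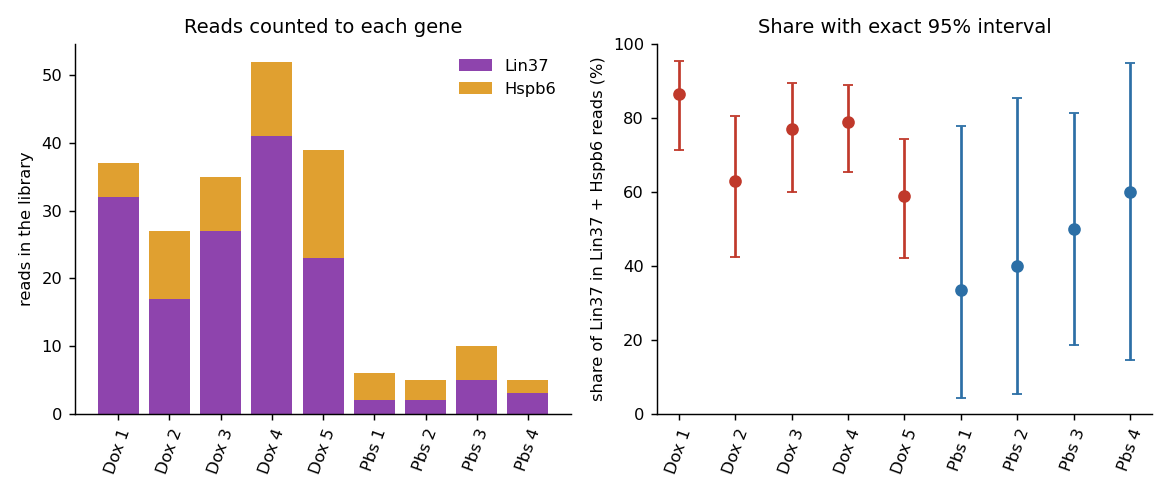
Left, reads counted to Lin37 (purple) and Hspb6 (orange) in each library, stacked. Right, the share of Lin37 in those reads in percent with its exact 95% interval, Dox in red and Pbs in blue; Dox libraries hold 27 to 52 such reads and Pbs libraries 5 to 10, so the Pbs intervals are wide.

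The values of 8 other pairs of genes with a partner on the opposite strand, listed with results of these data known, show how reads fell between the names elsewhere. In 6 of the 8 pairs the first gene exceeded its partner in all 9 libraries and took over 98% of the reads of both. Polr2b, a subunit of RNA polymerase II, had 31285 to 45532 normalized counts in Dox and 23761 to 59693 in Pbs, whereas Igfbp7, a secreted binding protein with which it shares 85 exonic bases, had 69.2 to 141 in Dox and 56.7 to 111 in Pbs. Syn3, a synapsin of nerve terminals, took 99.7% of the reads counted to it or to Timp3, a matrix metalloproteinase inhibitor.

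The same held for Ccdc152, whose product is little described, over Selenop, a selenium carrier (99.8%), for Lrrc61 over Rarres2, which encodes chemerin (99.4%), for Snx22 over Ppib, a prolyl isomerase (98.5%), and for Gm45774, a gene model, over Mt2, a metallothionein (98.1%). Smarcd3, a chromatin remodeling subunit, took 64.7% of the reads with Chpf2, and Syn1, which shares no exonic base with Timp1 in this annotation, 74.7%. Over all libraries Lin37 took 70.4% of the reads with Hspb6 and was above it in 6 of 9, nearest to these last 2 pairs. By group its pooled share was 73.7% of 190 reads in Dox and 46.2% of 26 reads in Pbs, so the value over all libraries rests mostly on Dox. Of the 18 genes in the 9 pairs, the groups did not overlap for Lin37 and for Smarcd3. Smarcd3 ran the other way, at 565 ± 139.7 in Dox and 945 ± 134 in Pbs (difference -0.77, SE 0.22, limma adjusted p = 0.647). Over the 2604 tested genes, 1.27% had every Dox library above every Pbs library and 1.38% had every one below. The pairs were listed with results of these data known, so nothing is read from that count.

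**Figure D4:**
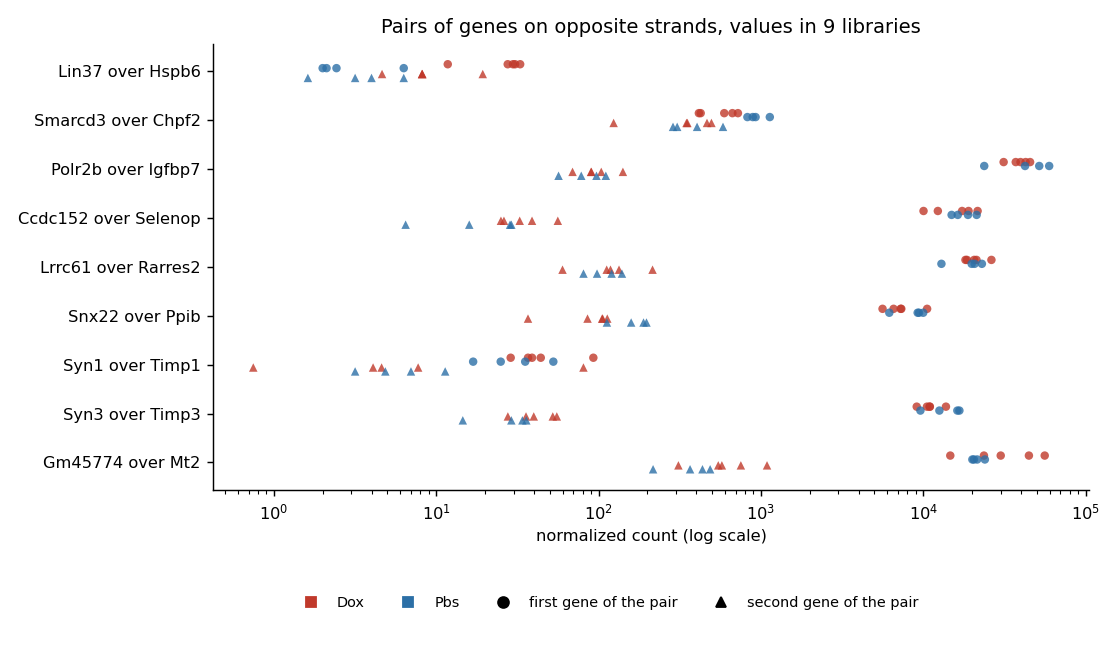
Normalized counts on a log axis of both genes of 9 pairs that lie on opposite strands, in the Dox (red) and Pbs (blue) libraries, the first gene as circles and the second as triangles. In 6 pairs the first gene lies far above its partner in all 9 libraries, whereas Lin37 exceeds Hspb6 in 6 libraries.

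Hspb1, which encodes HSP27 and binds actin filaments and client proteins, did not differ beyond the spread between replicates. It had 13.9, 9.68, 3.06, 2.99 and 4.10 normalized counts in Dox 1 to 5, against 0, 1.06, 10.1 and 6.48 in Pbs 1 to 4. Dox 1 and Pbs 3 were the highest of their groups and the groups overlapped widely (6.75 ± 4.87 in Dox and 4.41 ± 4.74 in Pbs). The difference in the fit without a filter was 0.88 (SE 0.81, limma adjusted p = 0.781), and it was 0.27 without Pbs 1 and 1.42 without Pbs 3.

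Hspb8, whose product HSP22 works with BAG3 in chaperone assisted autophagy, had 10.2, 7.74, 6.13, 12.7 and 1.02 normalized counts in Dox 1 to 5, against 0, 9.50, 5.05 and 9.72 in Pbs 1 to 4. A single library in each group was low, Dox 5 and Pbs 1, and the remaining ranges overlapped. The difference without a filter was 0.50 (SE 0.79, limma adjusted p = 0.834), and without Pbs 1 it turned to -0.29.

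Hspb2 encodes a small heat shock protein of heart and skeletal muscle. It was at or below 2 reads in every library, with 1, 0, 0, 2 and 0 reads in Dox 1 to 5, against 1, 0, 2 and 2 reads in Pbs 1 to 4. The 3-read floor was 1.54 to 5.81 normalized counts in Dox libraries and 2.43 to 3.79 in Pbs libraries, so no difference was detectable at this depth (-0.60, SE 0.79, limma adjusted p = 0.816 without a filter).

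Cryab, which encodes αB-crystallin, passed the filter in both groups. Its normalized counts were 25.1, 25.2, 20.4, 38.8 and 21.0 in Dox 1 to 5, against 26.0, 8.44, 53.0 and 43.8 in Pbs 1 to 4. The Pbs libraries held both the lowest and the highest value, and all Dox libraries lay between them. The means were 26.1 ± 7.46 in Dox and 32.8 ± 19.7 in Pbs, and the difference was -0.09 (SE 0.52, limma adjusted p = 0.985), turning to 0.23 without Pbs 3 and to 0.14 without Pbs 4. Cryab took 97.3% of the 291 reads counted to Cryab or Hspb2 and exceeded Hspb2 in all 9 libraries, a pair examined after its values were seen. The strand from which these reads came was not tested. Over the 9 libraries the log2 values of Cryab and Hspb2 had a Pearson r of 0.815, with Hspb2 at 0 in 4 libraries, so the value is a description only.

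Summed over the 5 small heat shock genes, the signal was 34.3 to 64.2 in Dox and 22.2 to 77.0 in Pbs, and its mean was 50.6 ± 13.8 in Dox and 48.3 ± 26.0 in Pbs. Without Hspb6 it was 40.9 ± 12.9 in Dox and 44.6 ± 25.4 in Pbs. The Pbs ranges enclosed the Dox ranges in both sums. Of the 6 other genes listed with the family, Cryaa, Hspb3, Hspb9, Hspb11 and Odf1 were at 0 in all 9 libraries. Hspb7, a family member of heart muscle, was at 0 to 1.86 in Dox and 0 to 8.10 in Pbs, with overlapping groups and 22 reads in all.

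**Figure D5:**
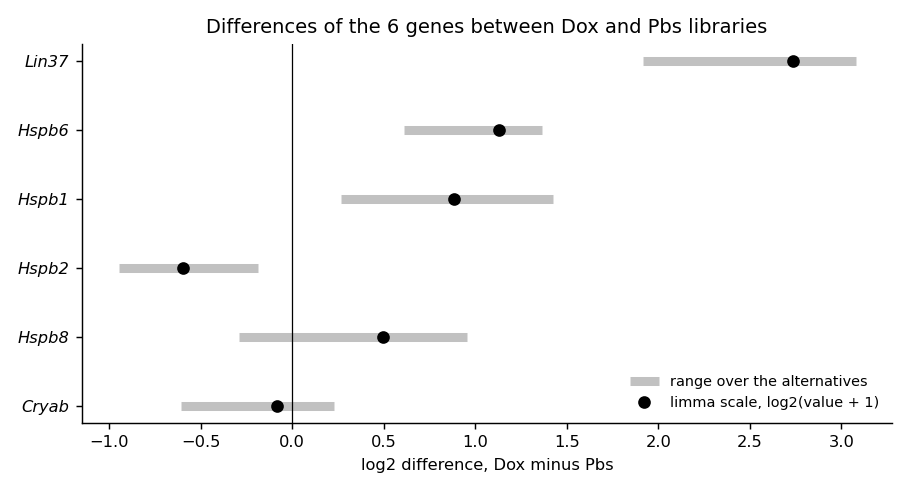
Log2 difference, Dox minus Pbs, of the 6 genes on the log2(value + 1) scale (black points), with the range over the alternative settings and left-out libraries (grey bars). Lin37, chosen on its difference in these same libraries, stays between 1.91 and 3.08, whereas the bars of Hspb8 and Cryab cross 0.

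No partner or regulator of small heat shock proteins was called, as 0 of all 2604 tested genes were. Of 13 genes in the list, 12 were above 0, 4 passed the filter and 0 were called, with 2 higher and 2 lower in Dox by fitted mean and a median difference of -0.003, against -0.01 over all tested genes. Hspa8, the constitutive HSP70 that takes over clients from small heat shock proteins, averaged 20.4 ± 5.66 in Dox and 14.5 ± 5.95 in Pbs. The heat shock factor Hsf2 stood at 56.4 ± 23.0 in Dox and 52.6 ± 17.4 in Pbs. Stub1, a ubiquitin ligase of the chaperone system, averaged 175 ± 55.4 in Dox and 202 ± 28.2 in Pbs, and Vim, the intermediate filament vimentin, 53.1 ± 18.1 in Dox and 57.1 ± 21.8 in Pbs.

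Of 17 genes known as HSF1 targets, all were above 0, 7 passed the filter and 0 were called, as over all 2604 tested genes. The Dox mean was above the Pbs mean for 5 and below it for 2, with a median difference of 0.13. The inducible HSP70 genes Hspa1a and Hspa1b, near-identical copies between which reads can be split, had the largest differences of the 7, with values of 40.3 ± 13.8 in Dox and 23.4 ± 14.3 in Pbs for Hspa1a (difference 0.90, limma adjusted p = 0.775) and of 36.3 ± 13.5 in Dox and 20.4 ± 11.4 in Pbs for Hspa1b (0.95, limma adjusted p = 0.775). The groups overlapped for both. Dnaja1, an HSP40 co-chaperone, averaged 84.3 ± 22.1 in Dox and 79.2 ± 23.4 in Pbs, and Hsp90ab1, the constitutive HSP90, 67.6 ± 19.8 in Dox and 69.0 ± 9.41 in Pbs.

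None of the other subunits of MuvB and DREAM was called, nor was any of the 2604 tested genes. Of 13 genes, Foxm1, Mybl2 and Rbl1 were at 0 in all libraries, 4 passed the filter and 0 were called, with a median difference of -0.16. By fitted mean on the log2(value + 1) scale 1 of the 4 was higher and 3 were lower in Dox, a split that rests on Rbl2 (-0.0024), and edgeR and DESeq2 each gave 2 higher. The MuvB subunits Lin9, Lin52 and Lin54, which bind Lin37 or its partners in the complex, had 10, 5 and 1 reads over all 9 libraries. Rbbp4, the histone binding subunit, averaged 14.0 ± 7.70 in Dox and 7.08 ± 3.96 in Pbs, and Rbl2, the pocket protein p130, 60.4 ± 35.2 in Dox and 55.2 ± 24.1 in Pbs, on 297 and 230 reads. Dyrk1a, the kinase that triggers DREAM assembly, averaged 26.9 ± 15.0 in Dox and 31.1 ± 14.7 in Pbs, and Tfdp2, an E2F partner, 5.05 ± 4.34 in Dox and 15.4 ± 11.1 in Pbs.

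Of 24 cell cycle genes that DREAM represses, 4 of them (Bub1, Cdk1, Cenpf and Mki67) were at 0 in all libraries. The filter was passed by 3 and 0 were called, as over all 2604 tested genes. All 3 had a lower mean in Dox, with a median difference of -0.55. Without Dox 4, without Dox 5, and with the replicate number as a block over replicates 1 to 4, 1 of the 3 was higher in Dox. Ccne2, a G1/S cyclin, averaged 51.7 ± 29.0 in Dox and 89.6 ± 68.7 in Pbs, and Ccna2, an S phase cyclin, 20.9 ± 13.0 in Dox and 26.3 ± 18.8 in Pbs. Tk1, a thymidine kinase, averaged 11.9 ± 6.23 in Dox and 14.9 ± 5.94 in Pbs, and the mitotic kinase Aurka, below the filter, 13.3 ± 11.3 in Dox and 4.29 ± 3.39 in Pbs. The groups overlapped for all 24 genes.

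The neighbours of Lin37 and Hspb6 on chromosome 7 stayed near 0. Igflr1 and U2af1l4 were at 0 in all libraries, and Zbtb32, Kmt2b, Psenen, Proser3 and Arhgap33 had 2 to 14 reads over all 9 libraries. Summed over the 7 neighbours, the signal was 1.54 to 5.11 in Dox and 1.26 to 9.72 in Pbs. Psenen, a γ-secretase subunit and the nearest of these genes beyond Lin37, averaged 2.06 ± 1.91 in Dox and 0.669 ± 0.806 in Pbs, with overlapping groups. Around Cryab and Hspb2 on chromosome 9, Nkapd1, Timm8b, 1110032A03Rik and Cryab passed the filter, with a median difference of 0.07. Of these 0 were called, as over all 2604 tested genes. Their differences were 0.23 for Nkapd1, 1.37 for Timm8b, a mitochondrial import chaperone, and -0.27 for 1110032A03Rik. Dlat and Sdhd, mitochondrial enzyme subunits, had 6 and 7 reads in all, and Pih1d2 was at 0.

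Across the 9 libraries the genes most like Lin37 among 2603 others were Prpf39 (Pearson r 0.898 of log2 values), Apod (0.897) and Ifitm3 (0.864). With the group means removed the values were 0.823 for Prpf39, 0.376 for Apod and 0.0926 for Ifitm3. Prpf39, a splicing factor, averaged 247 ± 51.1 in Dox and 163 ± 34.5 in Pbs, and Apod, a lipocalin, 57.0 ± 12.5 in Dox and 25.3 ± 5.98 in Pbs. The genes most like Cryab were Gm10366 (0.904), Rfc2 (0.894) and Drap1 (0.887). These are descriptions over 9 libraries that share their depth and groups.

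Markers of other cells were read in the same libraries. In a bulk library, fewer cells of a type and less RNA per cell cannot be told apart. Of 9 epithelial markers, all were above 0 in at least 1 library, 3 passed the filter, and their sum was 43.6 to 166 in Dox, against 28.0, 15.8, 36.6 and 462 in Pbs 1 to 4. Epcam was at 0 in 3 Dox and 3 Pbs libraries and Cdh1 in 5 Dox and 3 Pbs libraries. The 10 granulocyte markers, all above 0 in at least 1 library, summed to 65.8 to 91.1 in Dox, against 23.0, 33.8, 36.6 and 1155 in Pbs 1 to 4, with most of the Dox sum in Ly6g, and with Csf3r and Mmp8 at 0 in every Dox library. Both sums were thus higher in Dox than in Pbs 1 to 3, as Lin37 was, and highest in Pbs 4, where Lin37 stood at 2.43. Without Pbs 4 the Lin37 difference was 2.67, and without Pbs 4 and Dox 2 together it was 2.58. Ribosomal RNA took a larger share of most Dox libraries, and in Dox 3, whose 7.91% lay within the Pbs range, Lin37 stood at 27.6. The part of other cells and of ribosomal RNA in the Lin37 values was not tested.

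Markers of muscle cells, in which Hspb2, Hspb6 and Cryab are abundant, were low apart from Tagln, but several stood at levels like that of Hspb6. Of 12 smooth muscle and pericyte markers, Myh11, Actg2, Rgs5 and Synpo2 were at 0 in all libraries, and the sum, 100.2 to 225 in Dox and 137 to 213 in Pbs, lay mostly in Tagln, which fibroblasts also express, at 85.4 to 209.9 in Dox and 134 to 188 in Pbs. Lmod1, a leiomodin of smooth muscle, was at 10.2 in Dox 1 and 17.9 in Dox 5, at 0 in the other Dox libraries and at 0 to 2.52 in Pbs (46 reads in Dox and 3 in Pbs). Myl9, a myosin light chain, was at 0 to 9.68 in Dox and 0 to 7.57 in Pbs, Des (desmin) at 0 to 3.06 in Dox and 0 to 7.39 in Pbs, and Acta2 (smooth muscle actin) at 0 to 5.23 in Dox and 0 to 6.48 in Pbs. The groups overlapped for these 4 genes, and Hspb6 stood at 4.64 in Dox 1 and 8.20 in Dox 5, where Lmod1 was above 10. Of 10 cardiac markers, Myh6, Myl7, Mybpc3 and Sln were at 0 in all libraries, and the sum was 0 to 7.42 in Dox and 0 to 11.0 in Pbs, mostly from Nppa, a natriuretic peptide, at 0 to 3.71 in Dox and 0 to 9.50 in Pbs. The part of muscle cells in the values of Hspb6 was not tested. Of 6 skeletal muscle markers, Acta1, Myh4, Tnnt3 and Pvalb were at 0 in all libraries, and the sum was 0 to 7.74 in Dox and 0 to 1.06 in Pbs. The remaining lists gave sums that overlapped between the groups, at 76.6 to 151 in Dox and 64.9 to 193 in Pbs for 8 endothelial markers, 3.71 to 35.3 in Dox and 6.99 to 249 in Pbs for 8 pan-immune markers, 0 to 7.47 in Dox and 2.00 to 6.33 in Pbs for 5 mesothelial markers, and 3.06 to 7.17 in Dox and 0 to 81.8 in Pbs for 5 red blood cell genes.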

How the data were processed

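Bulk MARS-seq, a stranded 3′ tag method, was applied to 9 libraries. STAR, HTSeq and the mm10 build stand in the processing notes of the submitters, with versions, the strand setting and any collapsing by molecular tags not given in the sources used here. For each gene the authors deposited a normalized signal, the read count divided by a size factor, with 55421 lines of 55302 symbols (119 repeated symbols were summed). All values (100%) were whole multiples of 1 step per library at a tolerance of 1e-06, from which read counts were recovered. limma 3.58.1 under R 4.3.3 was fitted with a trend in the variance to log2(value + 1), which understates the change of low genes. Genes reaching 10 in 4 or more libraries were tested, p-values were adjusted by Benjamini-Hochberg with a threshold of 0.05, and no covariate was used. edgeR 4.0.16 (quasi-likelihood, TMM), DESeq2 1.42.0 and limma-voom were alternatives on the recovered reads, with other scalings, pseudocounts of 0.5 and 5, other filters, left-out libraries and a replicate block. The fits were also run on simulated counts with known changes, but the share of such changes that they call at this depth is not given here. Summaries used Python 3.11.15, pandas 2.3.3 and SciPy 1.17.1.

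The members and the gene lists were chosen with earlier results of these data known. Genes named are the 6 members, other family genes above 0, neighbours, both genes of each opposite-strand pair, up to 4 genes of highest mean per list and the 3 genes most like each member that passed the filter; any others are markers, family or list genes at 0, or are said to be chosen later. No pair of libraries agreed within sampling noise. The libraries are numbered as biological replicates, and p-values measure the spread between these libraries. Intervals and the 3-read floor cover counting error only. Gene positions and overlaps were taken from GENCODE M21, whereas the methods of the study name a RefSeq gene file for the read counting. Promoter windows came from RefSeq GRCm38.p6, with none matched for Cryab and Hspb2.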

Additional observations from a re-analysis of the deposited data

Results flagged for a closer look

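The lowest and the highest library of each group were compared with the nearest other library by Dixon's criterion at the 95% level, for the 6 genes, for 2 sums (Lin37 with Hspb6, and the 5 small heat shock genes) and for the share of Lin37. Of these 18 sets of libraries 4 held a far value. A chance rate of about 1 in 20 holds for separate sets, but the sums and the share reuse the values of the 6 genes. Several sets also rest on few reads, so the count is not read against that rate. In Dox, Lin37 was lowest in Dox 5 at 11.8, with the nearest Dox library at 27.6. In Pbs, Lin37 was highest in Pbs 3 at 6.31, with the nearest Pbs library at 2.43. Hspb6 was highest in Dox 2 at 19.4, with the nearest Dox library at 8.22, and Dox 2 was also the library with the fewest reads (432322) and the largest ribosomal RNA share (35.3%). Cryab was highest in Dox 4 at 38.8, with the nearest Dox library at 25.2. No explanation of these values was tested.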

How the results depend on the processing

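The number of genes called was 0 in all alternatives but 2. These were the fit without a filter (3 of 17428) and DESeq2 without independent filtering (1 of 2589), a setting chosen after seeing the data. The gene called by DESeq2 there was Lin37, with a difference of 3.08. As Lin37 was chosen on its difference in these same libraries, that call is not a test of it. Leaving out each library in turn gave 0 calls each time and differences of 2.61 to 3.04 for Lin37, 0.86 to 1.37 for Hspb6, 0.27 to 1.42 for Hspb1, -0.95 to -0.34 for Hspb2, -0.29 to 0.95 for Hspb8, -0.61 to 0.23 for Cryab and 22.9 to 31.8 percentage points for the share of Lin37 in the reads of Lin37 and Hspb6. Cryab, never called, turned to 0.23 without Pbs 3, 0.14 without Pbs 4 and 0.14 without Pbs 4 and Dox 2 together; the cause was not tested. With the group means removed, same-numbered libraries had correlations of 0.0665, 0.0373, 0.0207 and 0.0623. The other pairs of a Dox and a Pbs library ran from -0.0803 to 0.0402. All were small, and they do not settle whether the replicate numbers pair the libraries. With the replicate number as a block over replicates 1 to 4, 0 genes were called and Lin37 differed by 2.99. In that fit Hspb1 differed by 0.98, Hspb2 by -0.49, Hspb8 by 0.95 and Cryab by -0.02. Depth limits Hspb2 (8 reads in all) and the share in Pbs libraries (5 to 10 reads each).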
